A study of Mus musculus with 15 samples.

Results

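Homeostatic astrocyte genes were followed as 9 genes that astrocytes use for everyday support of neurons: Slc1a2, Slc1a3, Glul, Gja1, Gjb6, Slc6a11, Aldh1l1, Sox9 and Agt. They were taken by gene symbol, and 9 of 9 were found among the 29659 genes of every library. The libraries are bulk poly(A) RNA-seq of mouse thalamus. EL mice (n = 3) carry human APOE4 knocked in on both alleles with an intact Lilrb4a gene, ELKO mice (n = 3) carry the same APOE4 alleles and lack Lilrb4a, 5EL mice (n = 5) add the 5xFAD amyloid transgenes to EL, and 5ELKO mice (n = 4) add them to ELKO. By the labels human APOE4 is carried in all 15 libraries, and no group with mouse Apoe serves as a control; 1 ELKO library goes against this label, as given below. All mice were 4.5 months old. The 5xFAD transgenes are driven in neurons by a Thy1 promoter, and the Lilrb4a deletion is present in every cell, so an astrocyte transcript can be compared between genotypes here but not tied to a loss of Lilrb4a in 1 cell type.

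Astrocytes clear glutamate from synapses with the transporters encoded by Slc1a2 (GLT-1) and Slc1a3 (GLAST), and turn it into glutamine with glutamine synthetase, the product of Glul. They join into a network through gap junctions built of connexin 43 (Gja1) and connexin 30 (Gjb6), which spreads potassium and metabolites, and they take up GABA with GAT-3 (Slc6a11). Aldh1l1 is a folate enzyme, Sox9 a transcription factor of the astrocyte lineage and Agt the precursor of angiotensin, and the levels of such genes are commonly read against Gfap, an intermediate filament gene of reactive astrocytes.

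Values are the log2 expression values that were deposited, which give no read counts, so the depth behind a gene's value is unknown. Lilrb4a reached at most 2.33 in the 7 ELKO and 5ELKO libraries and at least 2.34 in the other 8, a narrow margin at a low level. Mouse Apoe lay between 5.92 and 6.37 in 14 libraries and at 10.90 in ELKO replicate 1, which goes against that library's APOE4 knock-in label. Without the library labelled ELKO replicate 1, 0 of 9 genes were still called in each comparison, and 5ELKO against ELKO gave differences from -0.01 (Aldh1l1) to 0.20 (Agt). Choroid plexus genes stood apart in 5EL replicate 1 and ELKO replicate 2, with a mean level over 10 genes of 8.38 and 8.74 against 6.07 to 6.65 elsewhere. Hepatocyte genes stood apart in EL replicate 1 and in 5ELKO, and are given beside Agt. Erythroid genes stood apart in EL replicates 2 and 3, and are given with Slc1a3 further on. The 9 genes had a mean level of 12.4 to 12.7 in every library, and 6 habenula and 7 hypothalamus genes ranged from 7.20 to 9.71 and from 5.39 to 7.25 on average. In bulk tissue, fewer astrocytes and less RNA per astrocyte cannot be told apart.

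The promoters of Slc1a3, Agt and Slc6a11 are shown because these 3 genes varied together most closely between mice of the same genotype, as described further on. RefSeq (GRCm38.p6) gave a promoter for 8 of the 9 genes, all but Sox9, as 250 bases before the start and 50 bases from it. Capitals mark 4 short motifs searched on both strands: the first is the box bound by the general factor TBP, TATAAA; the next is the core of nuclear factor I sites, TTGGC; the third is the core of SOX sites, ACAAT; and the last is the box bound by NF-Y, CCAAT. The nuclear factor I core and the reverse of the NF-Y box can share letters.
Slc1a3, chr15:8710758-8711057, minus strand: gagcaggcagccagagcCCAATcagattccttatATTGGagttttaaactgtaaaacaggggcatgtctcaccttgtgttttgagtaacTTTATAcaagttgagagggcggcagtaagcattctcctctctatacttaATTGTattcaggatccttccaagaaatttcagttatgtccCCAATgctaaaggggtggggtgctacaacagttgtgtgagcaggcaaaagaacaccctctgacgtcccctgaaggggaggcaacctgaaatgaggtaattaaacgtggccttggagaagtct
Agt, chr8:124569657-124569956, minus strand: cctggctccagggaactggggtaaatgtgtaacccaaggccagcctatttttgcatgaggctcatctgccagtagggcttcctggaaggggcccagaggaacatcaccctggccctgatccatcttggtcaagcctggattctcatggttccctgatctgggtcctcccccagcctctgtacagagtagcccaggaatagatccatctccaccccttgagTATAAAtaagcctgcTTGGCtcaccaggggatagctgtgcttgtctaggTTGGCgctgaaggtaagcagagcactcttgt
Slc6a11, chr6:114130991-114131290, plus strand: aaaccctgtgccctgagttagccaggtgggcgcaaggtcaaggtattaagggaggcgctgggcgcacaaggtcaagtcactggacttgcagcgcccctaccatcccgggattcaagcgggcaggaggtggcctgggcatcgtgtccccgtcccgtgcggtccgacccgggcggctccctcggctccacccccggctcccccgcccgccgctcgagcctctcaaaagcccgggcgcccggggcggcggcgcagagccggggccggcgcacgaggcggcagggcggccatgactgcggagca

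The 3 promoters are unlike one another. Slc6a11 holds 32 CpG dinucleotides, more than all but 8.56% of the 32851 mouse promoters of this length, and none of the 4 motifs. Agt holds 1 CpG and a TATAAA whose first base lies at -30 from the start, on the gene's own strand, where 8.32% of all promoters hold that motif somewhere in the window. Slc1a3 holds 3 CpG, a TATAAA on the other strand and 1 match to ACAAT, which 31.0% of all promoters hold on either strand. CCAAT was matched 3 times in Slc1a3 and TTGGC 2 times in Agt, against 37.4% and 46.7% of all promoters with at least 1 match. These matches describe letters only, and were not tested against the expression values.

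Divided by gene length, the 9 genes kept nearly the same order in every mouse. The log2 value per kilobase of exon (all GENCODE M21 exons of a gene merged) averaged 13.3 for Glul, 11.7 for Slc6a11, 11.5 for Slc1a2 and 10.9 for Agt over the 15 libraries. Slc1a3 followed, about level with Gjb6 at 9.99, and these neighbours did not differ beyond their spread, with Slc1a3 higher in 10 of 15 libraries. Gja1 at 9.11, Aldh1l1 at 8.36 and Sox9 at 7.02 closed the order, and each of the other 7 pairs of neighbours kept its order in 15 of 15 libraries. Merged exons count sequence that few transcripts use, which lowers long genes such as Slc1a2 (13133 bases) more than short ones such as Agt (1891 bases).

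**Figure D1:**
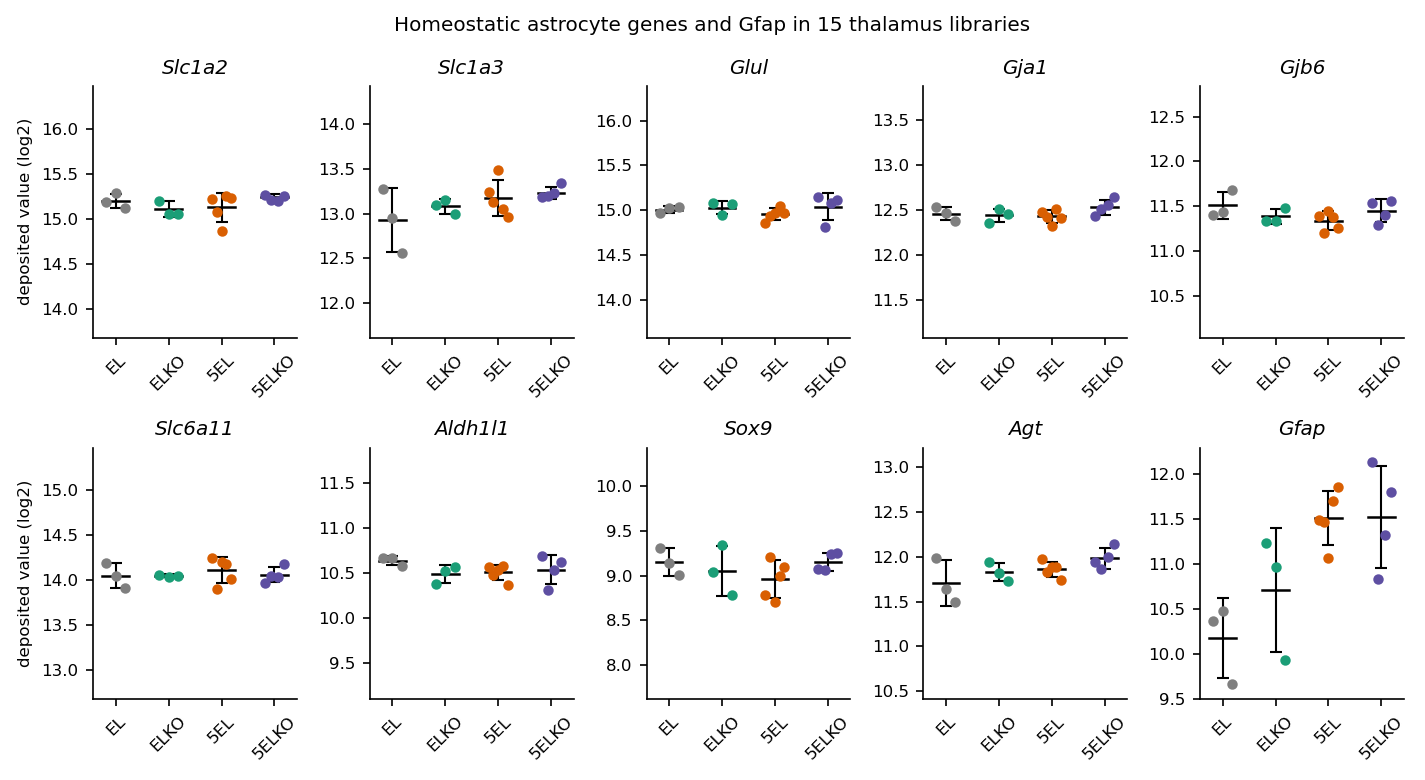
Deposited log2 value (y axis, each panel spanning the same 2.8 log2 units) of the 9 genes and of Gfap in EL, ELKO, 5EL and 5ELKO (x axis). Points are libraries, bars the group mean and error bars 1 SD. Groups lie close together for the 9 genes, while Gfap averages 10.17 in EL and 11.51 in 5EL.

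None of the 9 genes differed between genotypes past an adjusted p of 0.05 in any of 6 comparisons, by limma with Benjamini-Hochberg adjustment over all genes tested. In 5EL against EL the count was 0 of 9, where 0.0% of 15804 genes passed. In 5ELKO against ELKO, in ELKO against EL, in the interaction of 5xFAD and Lilrb4a, and in 5xFAD against no 5xFAD averaged over Lilrb4a genotype it was likewise 0 of 9, against 0.0% of 15804 genes each. In 5ELKO against 5EL it was 0 of 9 against 0.0191% of 15743 genes, which is 3 genes, all of the hepatocyte list. Calls were thus few for any gene, and the differences are given with their 95% confidence intervals.

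At a nominal p under 0.05, which carries no correction, 0 of 9 genes passed in 5EL against EL, where 7.7% of all genes did. The count was 0 of 9 in 5ELKO against ELKO (2.37% of all genes), in ELKO against EL (2.35%), in 5ELKO against 5EL (2.49%) and in the interaction (2.73%). It was 1 of 9, Agt, in 5xFAD against no 5xFAD averaged over Lilrb4a genotype, where 6.57% of all genes passed. These counts moved with single libraries. Without EL replicate 1, 3 of 9 genes passed in 5EL against EL (Slc1a3 and Agt higher, Gjb6 lower), where 3204 of all genes did. Without that library 2 of 9 passed in ELKO against EL, where 1830 of all genes did. In the main fit 1217 and 372 of all genes passed in these 2 comparisons. With the mean of the hepatocyte genes as a covariate the same 3 genes passed in 5EL against EL, where 2729 of all genes did. Without 5ELKO replicate 2, 3 of 9 passed in 5ELKO against 5EL (Glul, Gjb6 and Agt, all higher), and 390 of all genes did.

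The intervals give the differences that the main fit allows, and values under other settings can fall outside them. In 5EL against EL the 95% confidence intervals of the 9 genes lay between 0.726-fold and 1.44-fold, and the median of their log2 differences was -0.05 against 0.00063 over all genes. In 5ELKO against ELKO they lay between 0.883-fold and 1.36-fold, with a median of 0.10. In ELKO against EL the log2 intervals lay between -0.40 and 0.47, with a median of -0.02.

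For 5ELKO against 5EL, the effect of losing Lilrb4a where amyloid is present, the intervals of the 9 genes lay between 0.862-fold and 1.33-fold, with a median log2 difference of 0.10. A change of 2-fold is outside every interval of every gene in these comparisons, in the main fit and on the deposited scale. With the hepatocyte covariate, which did not overlap between 5ELKO and 5EL, Aldh1l1 was at -0.263 in 5ELKO against 5EL, below its interval. Gfap, chosen here after its values were seen, was 1.35 log2 units higher in 5EL than in EL (2.54-fold, SE 0.308, lower bound of the interval 0.69, adjusted p = 0.630, limma), and this interval lies above those of all 9 genes in that comparison. Gfap had the smallest p of the 18 reactive astrocyte genes tested in 5EL against EL, and the median of these 18 was 0.11. It therefore does not stand for that list. In 5ELKO against 5EL the Gfap difference was 0.01 (interval -0.48 to 0.49). 5EL serves in both of these comparisons, and EL and ELKO in others, so the comparisons are not independent of each other.

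**Figure D2:**
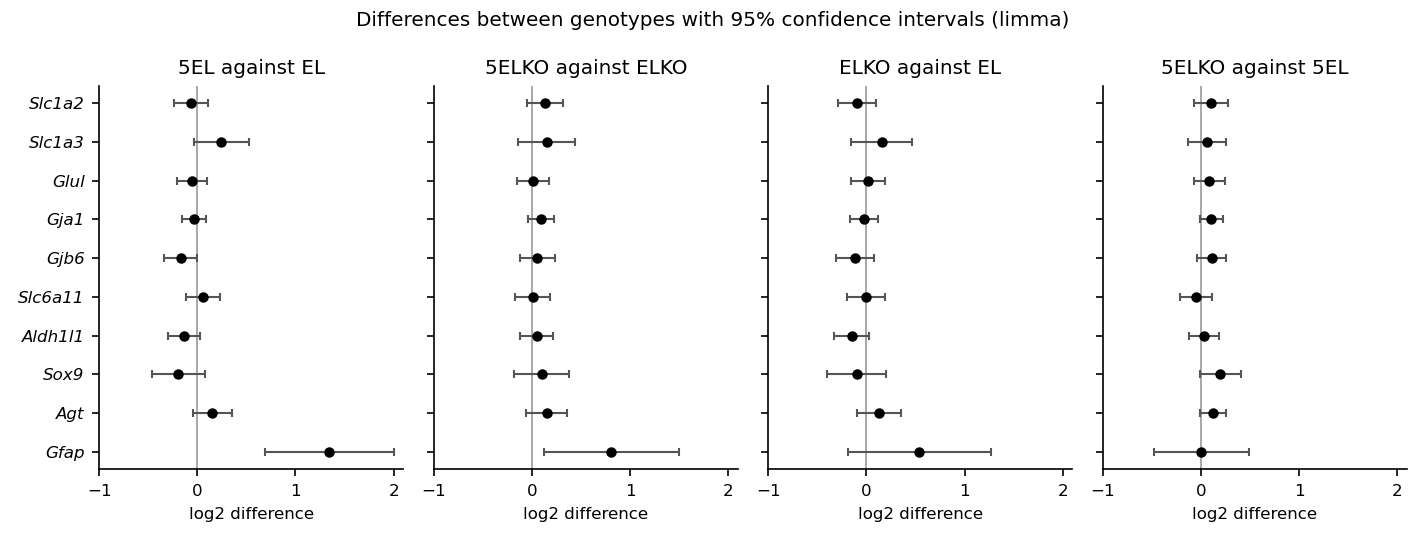
Log2 difference (x axis) of the 9 genes and Gfap (y axis) in 4 comparisons; points are limma estimates and bars 95% confidence intervals. The intervals of the 9 genes include 0 in all 4 panels, whereas that of Gfap excludes 0 in 5EL against EL and in 5ELKO against ELKO.

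Glutamate uptake was carried by genes at very unequal spread. Slc1a2 (chr2:102658659-102790784, GRCm38, plus strand), the main glutamate transporter of the forebrain, averaged 15.20 ± 0.083 (SD, n = 3) in EL, 15.11 ± 0.085 (n = 3) in ELKO, 15.13 ± 0.161 (n = 5) in 5EL and 15.24 ± 0.035 (n = 4) in 5ELKO. Its differences were -0.07 in 5EL against EL, 0.13 in 5ELKO against ELKO and 0.10 in 5ELKO against 5EL (interval -0.07 to 0.27), or 0.04 without 5EL replicate 3. The 4 groups overlapped, and the lowest library was 5EL replicate 3 at 14.87. Of its exon bases, 1.44% lie under another annotated gene, which matters because the counting ignored strand.

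Slc1a3 (chr15:8634124-8710764, minus strand), the transporter that astrocytes share with radial glia, varied far more. Its values were 13.27, 12.95 and 12.56 in EL, and 13.10, 13.15 and 12.99 in ELKO. They were 13.24, 13.13, 13.48, 13.05 and 12.96 in 5EL, and 13.18, 13.19, 13.23 and 13.34 in 5ELKO. 1 EL library was far below all others and EL had the widest spread of the groups, while the 5ELKO libraries lay close together and all above the ELKO libraries.

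Slc1a3 was 0.25 higher in 5EL than in EL (interval -0.03 to 0.52, adjusted p = 0.633, limma), 0.15 higher in 5ELKO than in ELKO (interval -0.14 to 0.44) and 0.20 higher with 5xFAD averaged over both genotypes (interval -0.00086 to 0.40). The groups 5ELKO and ELKO did not overlap for 1 of the 9 genes, Slc1a3, against 3.4% of all genes. The 5xFAD difference moved with 1 library: without EL replicate 1, the EL library richest in hepatocyte transcripts, 5EL exceeded EL in Slc1a3 by 0.42 (adjusted p = 0.094), and the averaged difference was 0.29 (adjusted p = 0.172). Without EL replicate 3, the lowest library, 5EL exceeded EL by 0.06.

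Glul (chr1:153899944-153909723, plus strand) was the gene with the highest level per length. It averaged 15.01 ± 0.038 (n = 3) in EL, 15.03 ± 0.071 (n = 3) in ELKO, 14.96 ± 0.068 (n = 5) in 5EL and 15.04 ± 0.149 (n = 4) in 5ELKO. Its differences ran from -0.05 in 5EL against EL to 0.08 in 5ELKO against 5EL, and each interval included 0. Other annotated genes lie over 3.49% of its exon bases. The groups overlapped in every comparison, with the lowest library 5ELKO replicate 2 at 14.82. Among 18 other genes of the glutamate and glutamine cycle, 0 passed an adjusted p of 0.05 in any of the 6 comparisons. At a nominal p under 0.05, 1 was lower in 5EL than in EL, the neuronal glutamate transporter gene Slc1a1 (log2 difference -0.22), and 1 was higher in 5ELKO than in 5EL, the cystine and glutamate exchanger gene Slc7a11 (log2 difference 0.18). In the other comparisons 1 was higher in 5ELKO than in ELKO, 1 lower in ELKO than in EL, 1 above 0 in the interaction and 2 higher with 5xFAD averaged. Of all genes, 7.7% passed in 5EL against EL, 6.57% with 5xFAD averaged and from 2.35% to 2.73% in each of the others, so such counts are few.

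The connexin genes varied separately, with r = -0.20 between their deviations from the group means over 15 libraries. Gja1 (chr10:56377330-56402513, plus strand) had the smallest spread within groups of the 9 genes, an SD of 0.0765. It averaged 12.46 ± 0.073 (n = 3) in EL, 12.44 ± 0.072 (n = 3) in ELKO, 12.43 ± 0.073 (n = 5) in 5EL and 12.53 ± 0.086 (n = 4) in 5ELKO. Its 5ELKO values of 12.43, 12.51, 12.55 and 12.64 overlapped those of 5EL, 12.48, 12.42, 12.32, 12.51 and 12.41. The highest library of 5EL was level with the second lowest of 5ELKO. The difference was 0.11 (interval -0.01 to 0.22, adjusted p = 0.999, limma).

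Gjb6 (chr14:57123303-57133611, minus strand) was at 11.40, 11.44 and 11.68 in EL and at 11.34, 11.34 and 11.48 in ELKO. In 5EL it was at 11.39, 11.20, 11.45, 11.38 and 11.26, and in 5ELKO at 11.54, 11.29, 11.40 and 11.56. EL replicate 3 was the highest of all libraries, the same library in which Slc1a3 was lowest. In 4 of 5 5EL libraries Gjb6 was below every EL library, and the difference was -0.17 (interval -0.34 to 0.00078, adjusted p = 0.630, limma). Without EL replicate 3 it was -0.08, and ELKO against EL went from -0.12 to -0.03.

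For Gjb6, 5ELKO exceeded 5EL by 0.11 (interval -0.03 to 0.25) and the interaction of 5xFAD and Lilrb4a was 0.23 (interval -0.02 to 0.48, adjusted p = 0.9996, limma), the smallest p of the 9 genes there. Without EL replicate 3 the interaction was 0.14, and without 5ELKO replicate 4 the difference of 5ELKO from 5EL was 0.07. Among 16 other genes of gap junctions, water and potassium handling, 0 passed an adjusted p of 0.05 in any comparison. In 5ELKO against 5EL, 2 were higher at a nominal p under 0.05, led by Tjp1, the gene of a junction scaffold protein that binds connexins (log2 difference 0.15), 1 was higher in 5ELKO than in ELKO and 1 with 5xFAD averaged, 0 passed in the other 3 comparisons, and the median of the 16 in 5ELKO against 5EL was 0.04 against 0.0016 over all genes. Of all genes, 2.49% passed in 5ELKO against 5EL, 2.37% in 5ELKO against ELKO and 6.57% with 5xFAD averaged.

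Slc6a11 (chr6:114131241-114249952, plus strand), the GABA transporter, was the gene least separated by genotype. It averaged 14.05 ± 0.138 (n = 3) in EL, 14.05 ± 0.013 (n = 3) in ELKO, 14.11 ± 0.146 (n = 5) in 5EL and 14.06 ± 0.087 (n = 4) in 5ELKO, and differences between groups held 6.81% of its sum of squares over the 15 libraries, against a median of 17.7% over all genes. It was the only 1 of the 9 genes below 0 in 5ELKO against 5EL, by 0.05 (interval -0.21 to 0.11). Of 10 other genes of GABA handling, which include synthesis and vesicle genes of neurons, 0 passed an adjusted p of 0.05 in any comparison. At a nominal p under 0.05, 3 were higher with 5xFAD averaged over Lilrb4a genotype, where 6.57% of all genes passed, and these were the neuronal genes Gad1, Gad2 and Slc32a1. Gad2, a GABA-making enzyme, had the smallest p (log2 difference 0.93, adjusted p = 0.693), was also the 1 higher in 5EL than in EL, and ran from 8.65 to 10.84 within EL. The list mean was lowest in EL replicate 3, at 9.16 against 9.57 to 10.19 elsewhere, and without that library the averaged difference of Gad2 was 0.58 and that in 5EL against EL 0.32. In the other 4 comparisons 0 of 10 passed.

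Aldh1l1 (chr6:90486427-90600203, plus strand), a cytosolic folate enzyme and a widely used astrocyte marker, was at 10.67, 10.67 and 10.58 in EL. It was at 10.38, 10.52 and 10.57 in ELKO, at 10.57, 10.48, 10.54, 10.58 and 10.37 in 5EL, and at 10.69, 10.31, 10.54 and 10.62 in 5ELKO. EL stood above both ELKO and 5EL, though the lowest EL library and the highest 5EL library differed by less than the rounding of the values. The groups did not overlap for 1 of the 9 genes, Aldh1l1, both in 5EL against EL (3.26% of all genes) and in ELKO against EL (4.59%), and for 0 of 9 in 5ELKO against 5EL (1.06%).

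Aldh1l1 was 0.13 lower in 5EL than in EL (log2 difference -0.13, interval -0.30 to 0.03) and 0.15 lower in ELKO than in EL (log2 difference -0.15, interval -0.33 to 0.03), and EL serves in both. Without the library labelled ELKO replicate 1, whose mouse Apoe level stands apart and which was the lowest ELKO library for Aldh1l1, ELKO against EL was -0.10. Aldh1l1 differed by 0.03 between 5ELKO and 5EL (interval -0.12 to 0.19). Other annotated genes lie over 13.4% of its exon bases. Among 19 other folate and one-carbon enzymes and carriers, 0 passed an adjusted p of 0.05 in any comparison, and 1 was lower in 5ELKO than in 5EL at a nominal p under 0.05, the folate carrier gene Slc19a1 (log2 difference -0.12). At that threshold 1 was higher in 5EL than in EL, 1 was lower with 5xFAD averaged, and 0 passed in the other 3 comparisons. Of all genes, 2.49% passed in 5ELKO against 5EL, 7.7% in 5EL against EL and 6.57% with 5xFAD averaged.

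Sox9 (chr11:112782224-112787760, plus strand) had the lowest level of the 9 genes and, after Slc1a3, the widest spread within groups, an SD of 0.194. Its values were 9.31, 9.14 and 9.01 in EL and 9.04, 9.34 and 8.78 in ELKO. They were 8.78, 9.21, 8.71, 8.99 and 9.10 in 5EL and 9.07, 9.06, 9.24 and 9.25 in 5ELKO. Groups overlapped throughout, and 5EL held the lowest library, replicate 3.

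The Sox9 difference was 0.20 in 5ELKO against 5EL (interval -0.01 to 0.41, adjusted p = 0.999, limma), the smallest p of the 9 genes in that comparison. It was -0.19 in 5EL against EL (interval -0.46 to 0.08), and -0.11 without EL replicate 1. With the 5EL library rich in choroid plexus transcripts left out, 5ELKO against 5EL was 0.15. Habenula genes moved with Sox9 within groups and are taken up further on. Of 16 other transcription factors of astrocytes, 0 passed an adjusted p of 0.05 in any comparison, and 1 was higher in 5ELKO than in 5EL at a nominal p under 0.05, Nfia, a nuclear factor I gene that acts in gliogenesis (log2 difference 0.13). At that threshold 1 was higher in 5ELKO than in ELKO, 1 was lower in 5EL than in EL, 2 were lower in ELKO than in EL, and 0 passed in the other 2 comparisons. Of all genes, 2.49% passed in 5ELKO against 5EL, 2.37% in 5ELKO against ELKO, 7.7% in 5EL against EL and 2.35% in ELKO against EL.

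Agt (chr8:124556534-124569706, minus strand) encodes angiotensinogen, which both astrocytes and hepatocytes make. It was at 11.99, 11.64 and 11.49 in EL and at 11.94, 11.82 and 11.73 in ELKO. It was at 11.97, 11.83, 11.88, 11.89 and 11.74 in 5EL and at 11.94, 11.86, 12 and 12.14 in 5ELKO. The lowest values were in EL, the highest in 5ELKO, and EL replicate 1 stood far above the other EL libraries.

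Agt was 0.15 higher with 5xFAD averaged over Lilrb4a genotype (interval 0.01 to 0.30, adjusted p = 0.693, limma), with 0.15 in 5EL against EL and 0.15 in 5ELKO against ELKO, and a test of the difference between these gave an interaction of -0.0030 (interval -0.29 to 0.29), which became -0.30 with the hepatocyte covariate described below (adjusted p = 0.41). Agt was 0.12 higher in 5ELKO than in 5EL (interval -0.01 to 0.25), and 0.07 higher without 5ELKO replicate 4. Without EL replicate 1 the averaged difference was 0.22 (adjusted p = 0.16) and 5EL against EL 0.29 (adjusted p = 0.0882). Without EL replicate 3 they were 0.10 and 0.04.

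Hepatocyte genes moved beside Agt. Of 17 hepatocyte genes 16 were tested, and in 5ELKO against 5EL 3 of 16 were higher at an adjusted p under 0.05 and 16 of 16 at a nominal p under 0.05. The 3 calls became 0 when any of 5EL replicates 3, 4 and 5 or 5ELKO replicates 1 and 4 was left out. In 5ELKO against ELKO 14 of 16 were higher at that nominal threshold. Their mean level was 4.35 to 4.53 in ELKO and 4.38 to 4.54 in 5EL, against 4.70 to 5.08 in 5ELKO and 4.39 to 5.12 in EL, where replicate 1 was the highest. Alb ran from 5.69 to 8.59 and Serpina1c, the lowest of the list, from 2.86 to 3.1. A value above 0 does not show detection on this scale, where Lilrb4a was at 2.33 in the 7 libraries labelled as lacking it.

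Within groups the mean of the hepatocyte list and Agt correlated at r = 0.67 over 15 libraries, as a description. This was not particular to the pair: Slc1a3 followed the hepatocyte list at 0.57, and Agt followed 4 oligodendrocyte precursor genes at 0.67. With the mean of the hepatocyte list as a covariate the averaged 5xFAD difference of Agt was 0.09, 5ELKO against 5EL 0.06 and 5ELKO against ELKO -0.06, while 5EL against EL became 0.24 (adjusted p = 0.176). The covariate did not overlap between 5ELKO and either 5EL or ELKO. In comparisons with 5ELKO its part therefore cannot be told apart from that of genotype. The part of hepatocyte transcripts in the Agt values was not tested beyond this. Of 13 other genes of the renin-angiotensin system 10 were tested in the 15 libraries, and 0 passed an adjusted p of 0.05 in any comparison. At a nominal p under 0.05, 1 was higher and 1 lower in 5EL than in EL, led by Atp6ap2, the gene of the prorenin receptor (log2 difference -0.27). Mme, the gene of the peptidase neprilysin, was the 1 lower in 5ELKO than in ELKO (log2 difference -0.45) and the 1 lower in 5ELKO than in 5EL (log2 difference -0.26, 9 genes tested). In the interaction 1 was below 0, the angiotensin receptor gene Agtr2 (log2 difference -0.17), and in the other 2 comparisons 0 passed, against 2.35% and 6.57% of all genes. Of all genes, 7.7% passed in 5EL against EL, 2.37% in 5ELKO against ELKO, 2.49% in 5ELKO against 5EL and 2.73% in the interaction.

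The spread between mice of 1 genotype was large beside the differences between genotypes. The within-group SD (11 residual degrees of freedom) was 0.201 for Slc1a3 and 0.194 for Sox9, and 7.6% and 8.59% of all genes tested had a larger 1. Agt was at 0.142, while Gjb6, Slc6a11, Slc1a2 and Aldh1l1 lay between 0.11 and 0.118, Glul at 0.0946 and Gja1 at 0.0765, around the median of all genes, 0.098. Differences between the 4 groups held 37.3% of the sum of squares of Agt, the most of the 9 genes, 30.6% of that of Gja1 and 16.2% of that of Glul. The median over all genes was 17.7%, and of the 9 genes only Glul and Slc6a11 lay below it.

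After the group mean was taken from each library, the 9 genes did not vary as 1 unit. Over the 36 pairs of genes the median r was 0.16, with 6 pairs above 0.5 and 1 below -0.5, each over the same 15 libraries. Slc1a3, Agt and Slc6a11 formed 3 of these pairs: r was 0.78 for Slc1a3 with Agt, 0.71 for Agt with Slc6a11 and 0.66 for Slc1a3 with Slc6a11, and it stayed at 0.59 or above for each of these pairs when any 1 library was left out. Without the 2 libraries farthest from the mean for the gene named first, these values were 0.52, 0.58 and 0.50 in the same order. The other 3 joined Aldh1l1, Glul and Gjb6, at 0.57 for Aldh1l1 with Glul, 0.55 for Aldh1l1 with Gjb6 and 0.54 for Glul with Gjb6. Without the 2 farthest libraries these were -0.04, 0.34 and 0.31, so these 3 rested in part on few libraries. Gjb6 and Sox9 varied in opposite directions, at -0.60, and at -0.73 without the 2 libraries farthest from the mean for Gjb6. These values describe libraries that also share depth, dissection and RNA quality.

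**Figure D3:**
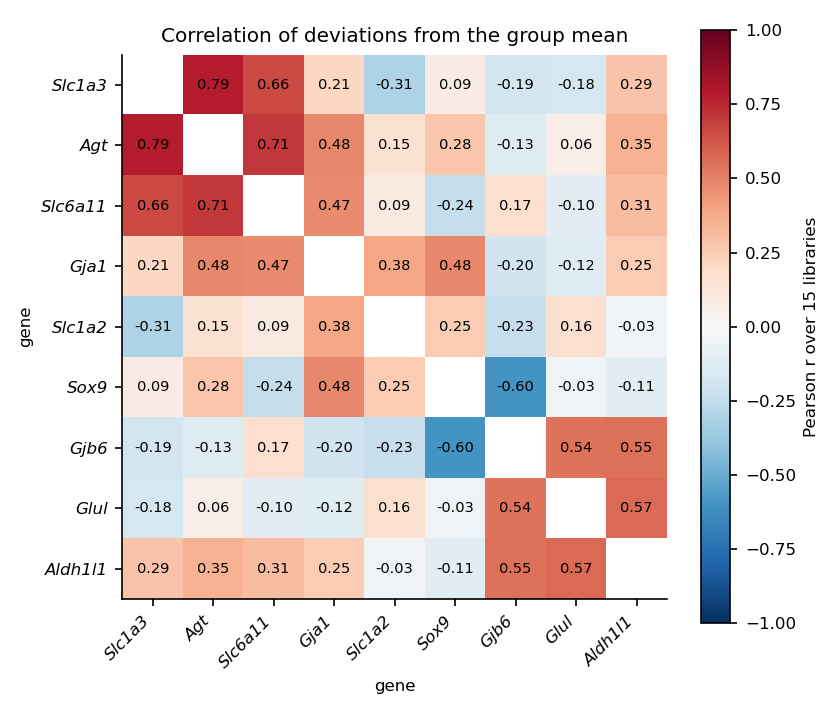
Pearson r between the 9 genes (x and y axes) over 15 libraries after the group mean was subtracted; red is positive, blue negative, and the number in each cell is r. The block of Slc1a3, Agt and Slc6a11 reaches 0.78, and Gjb6 with Sox9 is at -0.60.

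Libraries in which most of the 9 genes lay on the same side of the group mean can be named, which is not a measure of how far they lay from it. In 5ELKO replicate 4, 9 of 9 genes were above the mean of their group, by a median of 0.10, and in 5ELKO replicate 2, 9 of 9 were below it, with a median deviation of -0.10. 5EL replicate 2 had 8 of 9 genes below its group mean, and 5EL replicate 4 had 8 of 9 above. In EL replicate 3, 7 of 9 were below, with Gjb6 among the 2 above. The other libraries had between 3 and 7 genes above their group mean. By size, the largest deviations of single genes were those of Slc1a3, at -0.37 in EL replicate 3, 0.35 in EL replicate 1 and 0.31 in 5EL replicate 3.

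Other gene lists separated the members by what they varied with, again over 15 libraries after subtraction of group means. A list of 33 other genes of resting astrocytes followed Gjb6 at r = 0.89, Glul at 0.66 and Aldh1l1 at 0.57, but Slc1a3 at -0.18, Agt at -0.08 and Sox9 at -0.51. Slc1a2 followed the list of the glutamate and glutamine cycle, which also holds neuronal genes, at 0.85. Sox9 followed the 16 other astrocyte transcription factors at 0.91, 6 habenula genes at 0.78 and 7 cortex and hippocampus genes at 0.72, and thalamus genes at -0.55.

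Slc1a3 followed hypothalamus genes at 0.63, thalamus genes at -0.64 and erythroid genes at -0.73. The mean of the 3 erythroid genes tested was 5.90 and 6.93 in EL replicates 2 and 3, against 4.78 to 5.47 elsewhere. EL replicate 3, where it was highest, was also the library lowest in Slc1a3. EL replicate 3, where Slc1a3 was lowest, had the lowest habenula and hypothalamus means of all libraries, 7.20 and 5.39, and the highest thalamus mean, 12.81. In 5EL replicate 3, where Slc1a3 was highest, the hypothalamus mean was the highest, 7.25. Between groups, the thalamus mean was 12.67 in EL, 12.47 in ELKO, 12.41 in 5EL and 12.45 in 5ELKO, with overlap between EL and 5EL. In 5EL against EL, 5 of 10 thalamus genes were lower and 0 higher at a nominal p under 0.05, where 7.7% of all genes passed. The part of the dissected region in the Slc1a3 and Sox9 values, or in the differences from EL, was not tested.

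**Figure D4:**
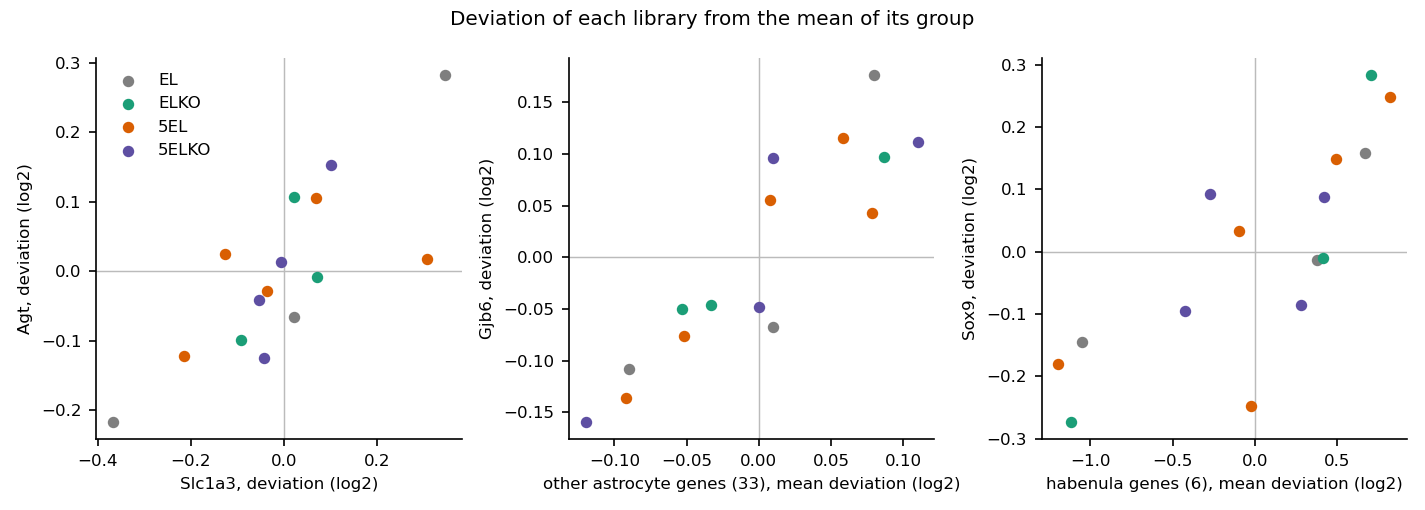
Deviation of each of 15 libraries from its group mean (log2, both axes), coloured by group: Agt against Slc1a3 (left), Gjb6 against the mean of 33 other astrocyte genes (middle) and Sox9 against the mean of 6 habenula genes (right). Points rise to the right in each panel, with r of 0.78, 0.89 and 0.78.

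Single genes most like each member were sought among the other 15795 genes tested, with the same measure over 15 libraries. Slc6a11 was nearest to Sparc (0.95), Itih3 and Plpp3 (0.88 each). Slc1a3 was nearest to Gpx3 (0.96), Pgrmc1 and Tacr3 (0.95 each), the last a neurokinin receptor gene of neurons. Sox9 was nearest to Otx1 (0.97), Lrig2 (0.93) and Mme (0.92), Otx1 being a transcription factor of the forebrain. Slc1a2 was nearest to Fam168b, Sall1 and Atp1b2, from 0.91 to 0.92, the last the beta subunit of an astrocyte sodium pump.

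Agt was nearest to Fam196a, Csf1 and Slc38a4 (0.92 each), and Aldh1l1 to Apoc1 (0.88), Sec14l2 and A830080D01Rik (0.85 each). Glul was nearest to Ankrd13a (0.93), Zfp503 (0.91) and A730020M07Rik (0.89), and Gja1 to Wwc2 (0.93), Gm26587 (0.91) and Wipi1 (0.86). Gjb6 was nearest to Npc2 (0.94), Abhd17b and Pfn1 (0.91 each). These names come from a search over many genes in 15 libraries and are given as a description.

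Reactive astrocyte and microglial genes give the scale of what these libraries could show. Of 22 reactive astrocyte genes 18 were tested, and 4 were higher and 1 lower in 5EL than in EL at a nominal p under 0.05, with a median of 0.11. Of all genes, 7.7% passed that threshold in this comparison. Of 13 genes of plaque-associated microglia 11 were higher at that threshold and 0 lower, with a median of 0.45, led by Cst7 (1.02, adjusted p = 0.630, limma). Averaged over Lilrb4a genotype, C4b, a complement gene that reactive astrocytes express, had the smallest p of the reactive list, with a 5xFAD difference of 0.71 (adjusted p = 0.653). Of the 33 other genes of resting astrocytes 0 were higher and 2 lower in 5EL than in EL, with a median of -0.05, and the 2 were led by Ppp1r3c, a glycogen regulator (log2 difference -0.25).

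In 5ELKO against 5EL, 0 of 18 reactive astrocyte genes were higher and 1 lower at a nominal p under 0.05, Tnc, an extracellular matrix gene (-0.37). Of all genes, 2.49% passed there. Of the 33 other genes of resting astrocytes, 1 was higher and 0 lower, Ppp1r3c (0.21, adjusted p = 0.999, limma), with a median of 0.0021. Among plaque-associated microglial genes 0 of 13 passed at that threshold, with a median of -0.02. The 9 homeostatic genes, with 8 of 9 above 0 and a median of 0.10 against 0.0016 over all genes, passed neither threshold in that comparison. In 5ELKO against ELKO, which also uses the 5ELKO libraries, 9 of 9 were above 0, with a median of 0.10. In ELKO against EL 3 of 9 were above 0. The signs of genes measured in the same libraries are not independent of each other.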

How the data were processed

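RNA of mouse thalamus was sequenced in 15 libraries (EL, ELKO, 5EL, 5ELKO), each taken as 1 animal, so p-values measure only the spread between these samples; a further 5ELKO library was not analysed here. Upstream, per the labels and methods, the authors used Trimmomatic 0.39 for trimming, HISAT2 2.2.1 for alignment (build GRCm38) and featureCounts 2.0.3, which counted read pairs by gene symbol regardless of strand. The deposited values are on a log2 scale whose transform is not given in the sources used here, and no counts were used, so no count model was run. Groups were compared with limma 3.58.1 in R 4.3.3 (trended prior, Benjamini-Hochberg adjustment), on genes at log2 3.32 or more in at least 3 of 15 libraries (15804 genes) or, for 5ELKO against 5EL alone, 4 of 9 (15743 genes). The fit was tested on simulated data. The members and the 24 lists were chosen with earlier results of these data known. All 9 members were named; of other lists, counts and the gene with the smallest p; per member, the 3 genes with the highest r. Deviations from group means of EL and ELKO libraries with the same number correlated at r = 0.325 to 0.742 (3 of 3 pairs), so a replicate block was fitted as an alternative; other numbers did not pair libraries. Coordinates are from GENCODE M21, promoters from RefSeq. No pair of the 105 pairs of libraries was identical. Alternatives changed the filter, the variance model, scaling, libraries and covariates.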

Additional observations from a re-analysis of the deposited data

How the results depend on the processing

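Under each alternative tried, 0 of the 9 genes were called in each of the 6 comparisons, and the smallest adjusted p of any of them was 0.0882 (Agt, 5EL against EL, without EL replicate 1). Of 414 values of the 9 genes under the other settings 21 turned sign, and of 540 values with 1 library left out 34 did. The causes were not tested. The hepatocyte covariate did not overlap between 5ELKO and either 5EL or ELKO, so in comparisons with 5ELKO it cannot be told apart from genotype. The count of all genes called in 5EL against EL went from 0 to 31 without EL replicate 1, and in 5ELKO against 5EL from 3 to 0 with the hepatocyte covariate or all 15 libraries in the fit and to 1 with no filter or the replicate block. At a nominal p under 0.05, the count of the 9 genes ran from 0 to 3 in 5EL against EL and in 5ELKO against 5EL, and from 0 to 2 at most elsewhere; the count of all genes in 5EL against EL (1217) ran from 355 without EL replicate 3 to 3204 without EL replicate 1, and in 5ELKO against 5EL (392) it was 912 with no filter. With the hepatocyte covariate, 5ELKO against ELKO turned to -0.0998 for Slc1a3, -0.0482 for Aldh1l1, -0.0594 for Sox9, -0.0607 for Agt and -0.0532 for Slc6a11; ELKO against EL to 0.0284 for Slc6a11; 5ELKO against 5EL to -0.263 for Aldh1l1, -0.0958 for Glul, -0.00782 for Gjb6, 0.109 for Slc6a11 and -0.929 for Gfap; and the interaction to -0.0114 for Aldh9a1. With the replicate block, which pairs libraries by number, 5ELKO against ELKO turned to -0.0184 for Glul and -0.0211 for Slc6a11, 5ELKO against 5EL to -0.00216 for Aldh1l1 and the averaged difference to -0.011 for Slc1a2. None of the 9 genes was called with or without the block. With it, 1 of 9 passed a nominal p under 0.05 in 5EL against EL (1502 of all genes), in 5ELKO against 5EL (384) and in the interaction (490). With 5xFAD averaged, 2 of 9 passed under the block (1273 of all genes). Without the choroid-rich libraries, 5ELKO against ELKO turned to -0.0309 for Glul and -0.000241 for Slc6a11, ELKO against EL to 0.00677 for Slc6a11, the interaction to -0.00153 for Glul and 0.0195 for Agt, and the averaged difference to 0.0477 for Sox9. Recentring the libraries turned the interaction of Agt to 0.0172. With 1 library left out, 5EL against EL ran from -0.0727 to 0.000307 for Gja1 and from -0.00964 to 0.128 for Slc6a11. 5ELKO against ELKO ran from -0.00517 to 0.126 for Aldh1l1, -0.0309 to 0.0831 for Glul, -0.0343 to 0.244 for Sox9 and -0.0329 to 0.036 for Slc6a11. ELKO against EL ran from -0.0278 to 0.328 for Slc1a3, -0.00192 to 0.0614 for Glul, -0.061 to 0.0154 for Gja1, -0.24 to 0.0381 for Sox9 and -0.069 to 0.0687 for Slc6a11. 5ELKO against 5EL ran from -0.0185 to 0.108 for Aldh1l1 and -0.198 to 0.236 for Gfap. The interaction ran from -0.266 to 0.0904 for Slc1a3, -0.144 to 0.105 for Agt and -0.121 to 0.0166 for Slc6a11, and the averaged difference from -0.0425 to 0.0146 for Glul, -0.114 to 0.0251 for Sox9 and -0.00132 to 0.0675 for Slc6a11. A planned covariate for Xist was not run, because that gene was at the floor in all 15 libraries. The paper lists total reads and RNA integrity for its 5EL and 5ELKO libraries but not for EL and ELKO, and its lowest RNA integrity values are in 5ELKO. These values were not used here. Read counts per gene were not used either, so counting error could not be set beside the spread between libraries.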
